A study of Homo sapiens with 12 samples.

Results

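Fatty acid synthesis and desaturation were followed through 10 listed genes, FASN, ACACA, ACLY, SCD, ELOVL5, ELOVL7, FADS1, FADS2, ACSL3 and ACSS2. They were chosen by name, with earlier results of these data known, and matched to the gene identifiers of the count files. Of these, 9 were matched among 54127 genes, and all 9 passed the filter on low counts that left 14505 genes. The symbol ACACA is paired in the gene tables with an identifier that the count files do not use, and this gene was not analysed here. The samples were 12 RNAseq libraries of C4-2, an androgen-responsive human prostate cancer line derived from LNCaP cells, grown in RPMI medium with serum. Of these, 6 libraries were from cells given the DMSO vehicle and 6 from cells given PBKi (HI-TOPK-032, called TOPK32 in the study design), an inhibitor of the catalytic activity of the PDZ binding kinase PBK, at 1 µM for 6 h. C4-2 is a single line, nothing in the labels says whether replicates were separate cultures, and the p-values measure the spread between these libraries. In bulk RNA, fewer cells expressing a gene and less RNA per cell cannot be told apart.

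De novo lipogenesis turns carbon from citrate or acetate into fat. ACLY and ACSS2 supply cytosolic acetyl-CoA, ACACA carboxylates it to malonyl-CoA, and FASN assembles both into palmitate. ELOVL enzymes then lengthen the chain, SCD and the FADS enzymes insert double bonds, and ACSL3 is among the synthetases that attach coenzyme A to long-chain fatty acids before they enter lipids. Much of this pathway is transcribed under the sterol regulatory element binding proteins, encoded by SREBF1 and SREBF2, and in prostate cancer cells it is known to respond to androgen and to be highly expressed.

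Expression of 4 of the 9 genes, ACSL3, ELOVL7, ACLY and FASN, fell in PBKi, and none rose (quasi-likelihood F test of edgeR, p-values adjusted by Benjamini-Hochberg over 14505 genes, threshold 0.05). Among all genes tested 21.5% were called lower and 20.1% higher, or 41.7% in either direction, so a call by itself was common in this comparison. ACSL3 fell by 29.2%, ELOVL7 fell by 24.2%, ACLY fell by 23.9% and FASN fell by 20.7%. The desaturases SCD, FADS1 and FADS2, the elongase ELOVL5 and the acetate-using ACSS2 did not pass the test. The median log2 fold change of the 9 genes was -0.14, against -0.012 over all genes tested. Since the members were chosen with earlier results of these data known, this comparison is a description and not a test.

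The promoter sequences of the members that fell are shown with those of a desaturase and an elongase that did not pass the test, since the data set these genes apart. RefSeq windows were matched for 9 of 10 members (FASN had no entry), and the 250 bases before the start farthest upstream are printed 5′ to 3′ on the strand of the gene, in coordinates of GRCh38.p14. Capitals mark GGGCGG (the GC box), ATTGG (the CCAAT box read on one strand) and CACGTG (an E-box), each searched on both strands. ACLY lies on the minus strand at chr17:41919023-41919272, ELOVL7 on the minus strand at chr5:60844270-60844519, ACSL3 on the plus strand at chr2:222860786-222861035, SCD on the plus strand at chr10:100346983-100347232 and ELOVL5 on the minus strand at chr6:53348951-53349200.
ACLY: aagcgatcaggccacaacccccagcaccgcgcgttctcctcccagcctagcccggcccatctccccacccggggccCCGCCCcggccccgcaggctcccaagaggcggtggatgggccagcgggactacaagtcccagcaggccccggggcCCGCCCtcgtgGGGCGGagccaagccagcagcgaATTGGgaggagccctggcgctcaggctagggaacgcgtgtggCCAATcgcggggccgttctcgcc
ELOVL7: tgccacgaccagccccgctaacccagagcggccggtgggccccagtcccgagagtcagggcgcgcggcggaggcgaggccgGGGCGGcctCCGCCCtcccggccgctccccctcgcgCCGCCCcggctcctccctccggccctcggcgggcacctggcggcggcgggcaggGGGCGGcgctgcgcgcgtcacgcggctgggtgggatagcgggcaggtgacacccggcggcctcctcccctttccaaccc
ACSL3: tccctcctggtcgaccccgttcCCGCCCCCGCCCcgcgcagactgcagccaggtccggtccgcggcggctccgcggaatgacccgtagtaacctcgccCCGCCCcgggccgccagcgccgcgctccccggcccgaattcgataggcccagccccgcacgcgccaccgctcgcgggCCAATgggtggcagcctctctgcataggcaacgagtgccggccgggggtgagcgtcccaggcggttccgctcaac
SCD: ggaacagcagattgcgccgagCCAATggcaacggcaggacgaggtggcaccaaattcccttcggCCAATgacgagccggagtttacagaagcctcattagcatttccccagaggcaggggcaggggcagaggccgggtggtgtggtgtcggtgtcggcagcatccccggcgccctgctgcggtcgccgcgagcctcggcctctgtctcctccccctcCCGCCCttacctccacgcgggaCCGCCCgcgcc
ELOVL5: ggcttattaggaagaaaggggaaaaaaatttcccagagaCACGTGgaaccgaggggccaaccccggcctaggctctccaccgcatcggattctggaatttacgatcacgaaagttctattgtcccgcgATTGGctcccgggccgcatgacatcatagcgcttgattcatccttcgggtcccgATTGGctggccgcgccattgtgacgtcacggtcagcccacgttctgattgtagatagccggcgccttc

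The GC box was found 3 times in the ACLY window, 4 times in that of ELOVL7, 3 times in that of ACSL3, 2 times in that of SCD and 0 times in that of ELOVL5. In ACSL3 the first pair of these matches lie end to end. Over the windows of 27303 genes, 42.2% held at least 1 GC box. ATTGG was found 2 times in ACLY, 2 times in SCD, 2 times in ELOVL5, 1 time in ACSL3 and 0 times in ELOVL7, and in 33.0% of all windows. The E-box CACGTG was found in ELOVL5, 206 to 211 bases before the start, and in 6.46% of all windows. TCACNCCAC, a core of the sterol regulatory element, and TATAAA were in none of the 9 member windows, and were found in 0.868% and 11.2% of all windows. A match is a description of these letters only, and the remaining member windows, of ACACA, FADS1, FADS2 and ACSS2, held 5, 2, 0 and 1 GC boxes, of which 4 in ACACA overlap one another.

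ACLY, the enzyme that splits citrate into acetyl-CoA and oxaloacetate, occupies chromosome 17 from 40023170 to 40086795 (minus strand, GRCh37 as for the other members). Its expression is given as CPM, the read count scaled to a common library size with TMM factors. The DMSO libraries ran from 737 to 888 CPM around a median of 841, and the PBKi libraries from 550 to 683 CPM around a median of 641. Each PBKi library lay below each DMSO library. Group means were 826 ± 60.2 CPM and 629 ± 44.9 CPM (SD, n = 6 each), a difference of -0.39 ± 0.061 (standard error) on the log2 scale (edgeR adjusted p = 6.63e-05). An exact permutation test of log2 CPM, two-sided, gave p = 0.00216, the smallest that 6 libraries against 6 allow. ACSS2, which makes acetyl-CoA from acetate (chromosome 20 from 33459949 to 33515765, plus strand), was the member with the fewest reads, with 628 in the lowest library. Its levels were 57.1 to 72 CPM in DMSO (median 67.9) and 57.2 to 65.9 CPM in PBKi (median 63.6), with all PBKi libraries inside the DMSO range. The log2 fold change was -0.084 (95% confidence interval -0.21 to 0.042, edgeR adjusted p = 0.278). The log2 ratio of ACLY to ACSS2 within a library was 3.63 ± 0.056 for DMSO and 3.32 ± 0.073 for PBKi (SD, n = 6 each), and its ranges did not overlap. This difference of -0.31 (standard error 0.038) passed a two-sided exact permutation test (p = 0.00216, adjusted p = 0.00433 over 4 ratios compared), so that ACLY fell more than ACSS2.

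FASN, the multifunctional synthase that builds palmitate, is on the minus strand of chromosome 17 from 80036214 to 80056170. It was measured at 1225 to 2235 CPM in DMSO (median 1479) and at 1065 to 1450 CPM in PBKi (median 1167). In 4 of the 6 PBKi libraries FASN was below the lowest DMSO library, while the highest 2 lay inside the DMSO range. Group means were 1542 ± 359 CPM and 1223 ± 144 CPM (SD, n = 6 each), a difference of -0.33 ± 0.12 (standard error) on the log2 scale (edgeR adjusted p = 0.0289; two-sided exact permutation p = 0.0303). DMSO replicate 5, at 2235 CPM, stood far above the other DMSO libraries (1225 to 1534 CPM). Without it the log2 fold change of FASN was -0.20 (standard error 0.082) and the call was lost (edgeR adjusted p = 0.0609). The call was also lost when PBKi replicate 1, 2, 3 or 4 was left out, with log2 fold changes of -0.31, -0.32, -0.29 and -0.31 and adjusted p = 0.0560, 0.0608, 0.0711 and 0.0581 from edgeR. All 6 PBKi libraries lay below the DMSO mean of 1542 CPM, but that mean includes DMSO replicate 5. PBKi replicate 6, at 1450 CPM, lay above DMSO replicates 1 (1303 CPM) and 3 (1225 CPM).

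ELOVL5 and ELOVL7 both encode elongases, enzymes that carry out the condensation step when a fatty acid chain is lengthened. ELOVL5 acts mainly on polyunsaturated chains and ELOVL7 on saturated long chains. ELOVL7 (chromosome 5 from 60047618 to 60140101, minus strand) was at 330 to 400.2 CPM in DMSO (median 384) and at 268 to 310 CPM in PBKi (median 284), with no overlap. Group means were 376 ± 26.5 CPM and 285 ± 16.4 CPM (SD, n = 6 each), a difference of -0.40 ± 0.057 (standard error) on the log2 scale (edgeR adjusted p = 2.57e-05; two-sided exact permutation p = 0.00216). ELOVL5 (chromosome 6 from 53132196 to 53213977, minus strand) was at 629 to 725 CPM in DMSO (median 702) and at 628 to 780 CPM in PBKi (median 657). Its PBKi range enclosed the DMSO range, and the log2 fold change was -0.0052 (95% confidence interval -0.14 to 0.13, edgeR adjusted p = 0.957). Replicates 1 and 2 of PBKi were the highest ELOVL5 libraries of all 12. The log2 ratio of ELOVL5 to ELOVL7 went from 0.87 ± 0.087 (DMSO) to 1.26 ± 0.089 (PBKi, SD, n = 6 each) with no overlap, a difference of 0.39 (standard error 0.051, two-sided exact permutation p = 0.00216, adjusted p = 0.00433 over 4 ratios).

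**Figure D1:**
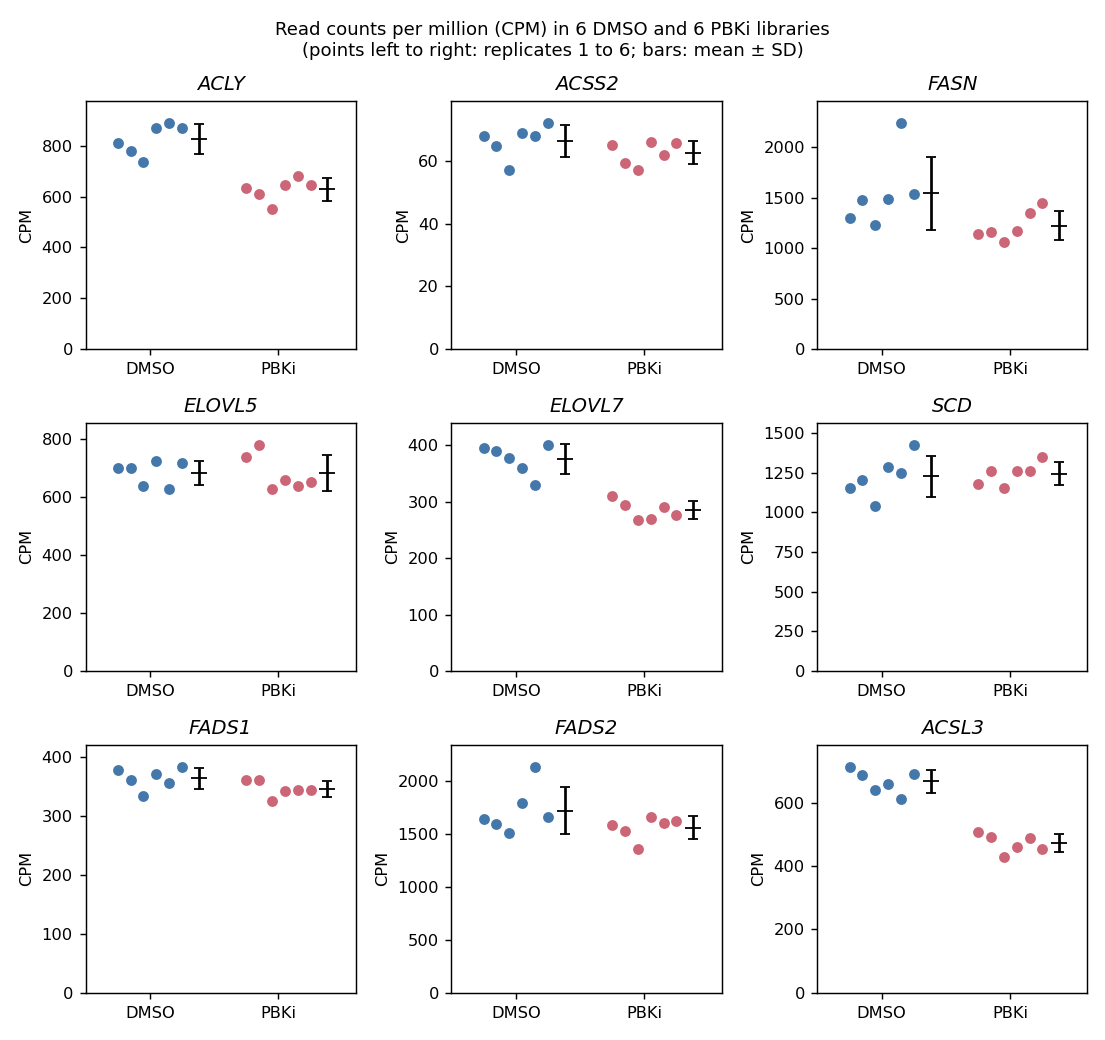
Expression of the 9 measured members in CPM (vertical axes, starting at 0) in each of 6 DMSO and 6 PBKi libraries, drawn from left to right in the order of their replicate numbers, with the group mean ± SD beside them. ACLY, ELOVL7 and ACSL3 have PBKi points below every DMSO point, while in FASN and FADS2 the DMSO point of replicate 5 stands highest, at 2235 and 2134 CPM.

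The desaturases among the members, SCD, FADS1 and FADS2, did not pass the test. Outside the members, SCD5 was lower (log2 fold change -0.38, edgeR adjusted p = 0.00309) and FADS3 higher (0.63, edgeR adjusted p = 1.69e-06). SCD, which makes monounsaturated from saturated fatty acids (chromosome 10 from 102106990 to 102124583, plus strand), was at 1037 to 1422 CPM in DMSO (median 1227) and at 1153 to 1350 CPM in PBKi (median 1259). All 6 PBKi libraries lay inside the DMSO range, with a log2 fold change of 0.021 (95% confidence interval -0.12 to 0.16, edgeR adjusted p = 0.831). FADS1 and FADS2 act in the making of polyunsaturated fatty acids and share a stretch of chromosome 11. FADS1, from 61567099 to 61596790 on the minus strand, lies within the annotated span of FADS2, from 61560452 to 61634826 on the plus strand. Their annotated exons overlap over 490 bases on opposite strands, and the sources used here do not say whether the counting used strand. FADS1 was at 334 to 383 CPM in DMSO (median 367) and at 325 to 362 CPM in PBKi (median 344), a log2 fold change of -0.071 (95% confidence interval -0.17 to 0.031, edgeR adjusted p = 0.257). FADS2 was at 1513 to 2134 CPM in DMSO (median 1651) and at 1356 to 1661 CPM in PBKi (median 1594), a log2 fold change of -0.14 (95% confidence interval -0.30 to 0.017, edgeR adjusted p = 0.141). Without DMSO replicate 5, its highest library, the log2 fold change of FADS2 was -0.069. The log2 ratio of FADS1 to FADS2 was -2.23 ± 0.18 in DMSO and -2.17 ± 0.088 in PBKi (SD, n = 6 each), and the difference of 0.067 (standard error 0.081) was within the spread (two-sided exact permutation p = 0.524, adjusted p = 0.524 over 4 ratios). Without DMSO replicate 5 that difference was -0.0028. The ratio of SCD to FADS2 differed by 0.16 (standard error 0.080) and also did not pass (two-sided exact permutation p = 0.0671, adjusted p = 0.0895 over 4 ratios).

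ACSL3, a long-chain acyl-CoA synthetase of the endoplasmic reticulum and lipid droplets, fell most of the 9 genes. It is on the plus strand of chromosome 2 from 223725660 to 223809357, and its exons overlap those of the antisense gene ACSL3-AS1 over 403 bases. ACSL3-AS1 had 32 reads over all 12 libraries. Levels were 611 to 711 CPM in DMSO (median 674) and 429 to 508 CPM in PBKi (median 474), and the groups were far apart. Group means were 666 ± 37.1 CPM and 472 ± 29.3 CPM (SD, n = 6 each), a difference of -0.50 ± 0.055 (standard error) on the log2 scale (edgeR adjusted p = 1.54e-06; two-sided exact permutation p = 0.00216). With each of the 12 libraries left out in turn, ACSL3 stayed between -0.52 and -0.46, ACLY between -0.42 and -0.35 and ELOVL7 between -0.43 and -0.37. PBKi libraries lay entirely below DMSO libraries in these 3 of 9 members, against 9.68% of all genes tested, and entirely above them in 0 of 9, against 10.5%. These shares too are a description, as the members were chosen with earlier results of these data known.

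**Figure D2:**
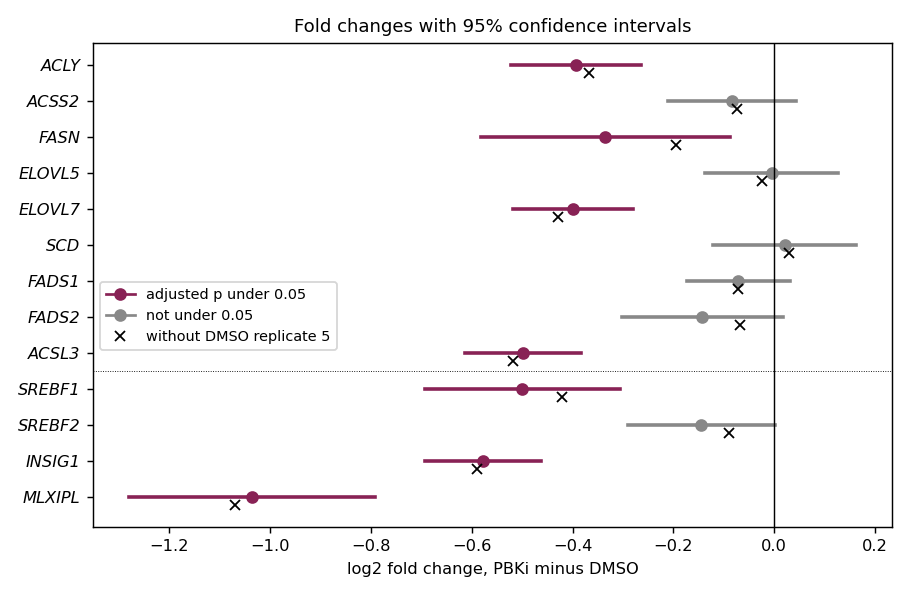
Log2 fold change of PBKi minus DMSO (horizontal axis) with its 95% confidence interval for the 9 members, above the dotted line, and for 4 regulators, below it, with crosses for the value without DMSO replicate 5. The intervals of ACSL3, ELOVL7 and ACLY end well below 0, FASN moves from -0.33 to -0.20 without that library, and those of SCD, ELOVL5, FADS1, FADS2 and ACSS2 include 0.

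**Figure D3:**
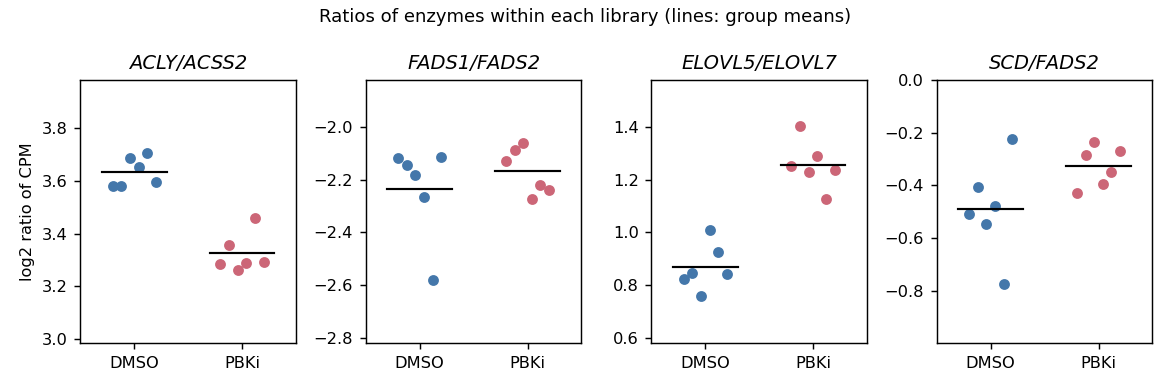
Log2 ratio of the CPM of paired enzymes (vertical axes, all spanning the same range of log2 units) in each of 6 DMSO and 6 PBKi libraries, with lines for group means. The ACLY to ACSS2 ratio is lower in every PBKi library and the ELOVL5 to ELOVL7 ratio higher, while the ratios of FADS1 and SCD to FADS2 overlap.

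Levels of different genes were compared as CPM per kilobase of the canonical transcript in DMSO. FADS2 was highest at 557 ± 71.5 CPM per kilobase, followed by ELOVL5 at 248 ± 15.0, SCD at 234 ± 24.7, ACLY at 192 ± 14.0 and FASN at 182 ± 42.5 (SD, n = 6 each). ACSL3 came next at 119.5 ± 6.65, then ELOVL7 at 97.0 ± 6.84, FADS1 at 83.5 ± 4.12 and ACSS2 at 23.0 ± 1.77 CPM per kilobase (SD, n = 6 each). Neighbours whose ranges overlapped were ELOVL5 and SCD, SCD and ACLY, ACLY and FASN, and ELOVL7 and FADS1. Apart from ACSS2, which was above 74.8% of all genes tested on this scale, each of the members was above at least 93.0% of them. The order depends on the annotated length, since per kilobase of all annotated exons SCD was highest at 234 and FADS2 was at 163 CPM. Summed over the 9 members, the DMSO libraries held 6556 to 8501 CPM (median 7439) and the PBKi libraries 5832 to 6866 CPM (median 6549), or 0.656% to 0.850% of the TMM-scaled library in DMSO.

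DMSO replicate 5 deviated from the other DMSO libraries in step with the GC content of transcripts. Over 13901 genes, Spearman's correlation between the GC content of the canonical transcript and the deviation of a library from its group mean was 0.595 in this library and between -0.321 and 0.238 in the other 11. Across the 9 members, which share the library, the deviation of DMSO replicate 5 rose with GC content (Pearson's r = 0.938, Spearman's rho = 0.95, n = 9, as a description). FASN has a GC content of 65.3%, above 96.6% of the genes, and was 0.68 log2 units higher in DMSO replicate 5 than in the mean of the other DMSO libraries. FADS2, at 59.0% GC, was 0.38 higher. ELOVL7, at 37.0% GC, was 0.22 lower on the same scale and ACSL3, at 37.4%, was 0.15 lower. This library was also the shallowest and had 3 sequencing lanes in place of 4. In a fit with an offset for GC content in each library, added after seeing the data, FASN had a log2 fold change of -0.28 (adjusted p = 0.0127) and FADS2 one of -0.14 (adjusted p = 0.0437), both from edgeR, while ACSL3, ELOVL7 and ACLY stayed lower.

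**Figure D4:**
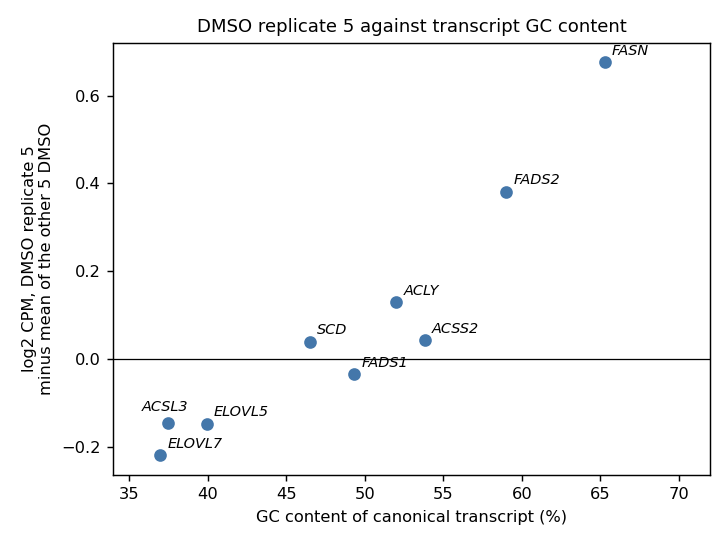
Difference between DMSO replicate 5 and the mean of the other 5 DMSO libraries in log2 CPM (vertical axis) against the GC content of the canonical transcript in percent (horizontal axis), with 1 point for each of the 9 members. FASN lies highest at 65.3% GC and 0.68, and ELOVL7 lowest at 37.0% GC and -0.22.

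Within the groups, most but not all pairs of members deviated in the same direction from library to library. After removing group means, the log2 CPM of 28 of the 36 pairs of members correlated positively over the 12 libraries, with a median Pearson's r of 0.471, or 0.603 without DMSO replicate 5. The points of a pair share library, depth and base composition, so the values are a description. The highest values were 0.898 for ELOVL7 with ACSL3, 0.856 for FASN with FADS2 and 0.813 for ACLY with FADS2. Without DMSO replicate 5 these were 0.878, 0.634 and 0.901. The other 8 pairs correlated negatively, and the lowest values were -0.518 for FASN with ELOVL7 and -0.488 for ELOVL7 with FADS2, which were 0.040 and 0.049 without that library. For likeness to FASN, group means were not removed, so the values include the difference between PBKi and DMSO. Among the tested genes other than members, those most like FASN in log2 CPM over the 12 libraries included MFHAS1 (Pearson's r = 0.970) and GRK2 (0.961). Both were highest among DMSO libraries in replicate 5, with 138.5 and 249 CPM against at most 118.6 and 193 in the others, and neither passed the edgeR test (adjusted p = 0.0788 and 0.127). Without that library Pearson's r with FASN was 0.945 for MFHAS1 and 0.919 for GRK2.

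Of the regulators of lipogenesis, SREBF1, SREBF2, INSIG1 and MLXIPL were examined whatever their change. SREBF1, which encodes the sterol regulatory element binding protein most tied to fatty acid synthesis, was at 616 to 866 CPM in DMSO (median 670) and at 390.5 to 558 CPM in PBKi (median 503), with no overlap. On the log2 scale it fell by 0.50 ± 0.092 (standard error, edgeR adjusted p = 0.000326), and the log2 fold change was -0.42 without DMSO replicate 5, where it was highest. SREBF2, the paralogue most tied to cholesterol synthesis, went from 277 ± 32.0 to 250.4 ± 14.3 CPM (SD, n = 6 each), which did not pass (log2 fold change -0.14, 95% confidence interval -0.29 to 0.00088, edgeR adjusted p = 0.102). The SREBF2 value rested on single libraries, being -0.089 without DMSO replicate 5 (edgeR adjusted p = 0.246) and -0.18 without DMSO replicate 3, where it passed (edgeR adjusted p = 0.0381). It also passed with the GC content offset (-0.14, edgeR adjusted p = 0.0445). INSIG1, which holds the precursors of these proteins in the endoplasmic reticulum and is itself a target of them, went from 572 ± 37.7 to 383 ± 19.0 CPM (SD, n = 6 each) with no overlap (log2 fold change -0.58, edgeR adjusted p = 2.56e-07). MLXIPL, encoding the carbohydrate-responsive factor ChREBP, was weakly expressed and went from 7.07 ± 0.97 to 3.45 ± 0.43 CPM (SD, n = 6 each, log2 fold change -1.04, edgeR adjusted p = 1.81e-06). Against 21.5% lower and 20.1% higher over all genes tested, 6 of 18 regulators tested of 19 listed were lower and 2 higher. Their median log2 fold change was 0.012. The others that were lower included PRKAA2, a catalytic subunit of AMP-activated kinase (log2 fold change -0.32, edgeR adjusted p = 0.00265).

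Other enzymes of the pathway, from lists written with earlier results of these data known, moved in both directions. So did all genes tested, with 21.5% called lower and 20.1% higher. Among 13 tested of 16 genes for elongation and desaturation, 6 were lower and 1 higher, with a median log2 fold change of -0.13. ELOVL2, an elongase of polyunsaturated chains, fell from 19.5 ± 0.95 to 10.9 ± 1.47 CPM, and ELOVL6, which elongates palmitate, from 41.6 ± 2.47 to 30.0 ± 1.40 CPM (SD, n = 6 each, log2 fold changes -0.85 and -0.48). FADS3, the third gene of the FADS cluster, rose from 15.1 ± 1.53 to 23.4 ± 0.98 CPM (SD, n = 6 each, log2 fold change 0.63). None of these 3 genes overlapped between the groups, and the adjusted p-values from edgeR were 4.79e-07, 2.94e-06 and 1.69e-06. They were named for having the largest changes of the list, so the lack of overlap is a description. Over all genes tested, PBKi libraries lay entirely below DMSO libraries in 9.68% and entirely above in 10.5%.

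Beside 21.5% lower and 20.1% higher over all genes tested, 3 of 11 genes for acetyl-CoA supply and malonyl-CoA, all tested, were lower and 1 higher. Their median log2 fold change was -0.043. The gene that rose was ME1, the cytosolic malic enzyme that yields NADPH, from 197.5 ± 9.77 to 567 ± 73.3 CPM (SD, n = 6 each, log2 fold change 1.52, edgeR adjusted p = 6.33e-11). MECR and CBR4, which act in mitochondrial fatty acid synthesis, fell by 0.28 each on the log2 scale (adjusted p = 0.00337 and 0.00388 from edgeR). Of the acyl-CoA synthetases and uptake genes, 11 of 14 were tested, with 5 lower, 2 higher and a median of -0.18. ACSL1, another long-chain acyl-CoA synthetase, rose where ACSL3 fell, from 564 ± 60.8 to 769.8 ± 40.5 CPM (SD, n = 6 each, log2 fold change 0.45, edgeR adjusted p = 4.32e-05) with no overlap. The weakly expressed ACSL4 and ACSL6 fell (log2 fold changes -0.63 and -0.54, adjusted p = 0.000417 and 0.00611 from edgeR), and ACSL5 did not pass. Among the fatty acid transport proteins, SLC27A4 rose (log2 fold change 0.33, edgeR adjusted p = 0.00615). SLC27A5 (-0.42, adjusted p = 0.00144) and SLC27A3 (-0.27, adjusted p = 0.0436) fell in the same edgeR test.

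Downstream and in the opposite pathway calls went both ways, as over all genes tested, where 20.1% were higher and 21.5% lower. Of 13 tested of 14 genes of glycerolipid synthesis, 5 were higher and 1 lower, with a median of 0.031. Above a mean log2 CPM of 3, those with the largest changes were AGPAT5 (log2 fold change 0.76, edgeR adjusted p = 8.75e-08), LPIN2 (0.26, adjusted p = 0.0122) and GPAT4 (0.23, adjusted p = 0.00201), of which AGPAT5 and GPAT4 encode acyltransferases of the route to phosphatidic acid and LPIN2 a phosphatidate phosphatase. Of 17 fatty acid oxidation genes, all tested, 4 were higher and 5 lower, with a median of -0.080. ECHS1, a hydratase of the mitochondrial cycle, fell most among those that met the expression threshold (log2 fold change -0.37, edgeR adjusted p = 6.00e-05), followed by ECI1 (-0.23, adjusted p = 0.0250) and ACADM (-0.21, adjusted p = 0.00696). The call for ECI1 was lost without DMSO replicate 1 or PBKi replicate 2, 3 or 6, with log2 fold changes of -0.21, -0.20, -0.20 and -0.20.

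**Figure D5:**
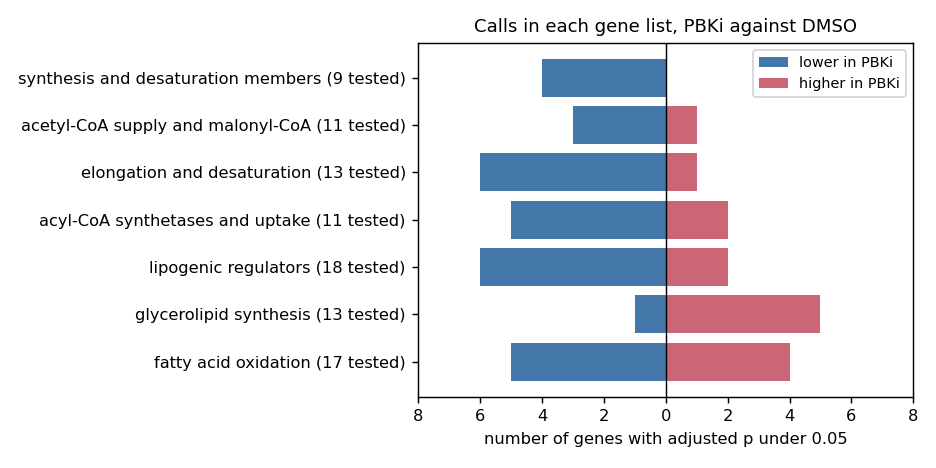
Number of genes with an adjusted p under 0.05 (horizontal axis) that were lower (left of 0) or higher (right of 0) in PBKi, for the 9 members and the 6 lists of related genes. The members show 4 lower and 0 higher, and glycerolipid synthesis 1 lower and 5 higher. Over all genes tested 21.5% were lower and 20.1% higher.

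Reads on genes were 9663203 to 28029908 in DMSO and 13122415 to 22817803 in PBKi, and each member had at least 628 reads in every library. Between 5.74% and 6.96% of the uniquely aligned DMSO reads fell outside genes, against 5.94% to 9.30% for PBKi, where replicates 3 and 6 had most. Leaving out both of these gave 0 members higher and 4 lower. PBK, the kinase targeted, was at 219 ± 37.2 CPM in DMSO and 165 ± 15.1 CPM in PBKi (SD, n = 6 each, edgeR adjusted p = 0.00194), although a catalytic inhibitor need not change its transcript. All 8 markers of prostate epithelium were above the filter, but their sum was 4392 to 5233 CPM in DMSO and 2346 to 3124 CPM in PBKi. Of these markers 4 were lower and 1 higher, against 21.5% and 20.1% of all genes tested. Among the 8 markers KLK3, the prostate specific antigen, had a log2 fold change of -1.39 (edgeR adjusted p = 7.68e-08). Of 5 adipocyte markers only PLIN4 was above the filter (log2 fold change 0.81, edgeR adjusted p = 0.00727), and their sum was 1.62 to 3.45 CPM in DMSO and 2.63 to 5.00 CPM in PBKi. The 6 immune markers summed to 0.314 to 0.397 and 0.346 to 0.738 CPM, the 6 of 7 fibroblast and endothelial markers matched to 22.2 to 27.5 and 20.7 to 25.9 CPM, and the 3 basal markers to 1.1 to 1.73 and 0.665 to 1.5 CPM in DMSO and PBKi, and no marker matched was at 0 in all libraries. Their part in the results was not tested.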

How the data were processed

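Counts were read from 47 lane files. Per the labels and methods, single-end reads from Illumina HiSeq were aligned to GRCh37 with TopHat2 2.0.4 and counted per gene with HTSeq 0.5.3p9, and the deposited values are raw counts per lane. The labels and methods name different RNA kits. Reads aligned to several places or to overlapping genes were not counted, which lowers counts of genes with near-identical copies. Rows naming no gene were left out: reads outside genes were 5.74% to 9.30% and ambiguous reads 3.87% to 4.35% of uniquely aligned reads. Lanes were summed per library, since their counts agree within sampling noise (chi-square over its degrees of freedom, 0.990 to 1.02 between lanes and 4.02 to 24.5 between replicates).

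Genes reaching 10 counts in 6 or more libraries were compared by edgeR 4.0.16 in R 4.3.3 (TMM, quasi-likelihood F test, no covariate, Benjamini-Hochberg adjustment, threshold 0.05). Standard errors came from the fold change and F statistic. Exact permutation tests used log2 CPM (prior count 2) over 924 splits. Of 5 ratios planned, the one with ACACA was not run. Symbols and GRCh37 coordinates came from GENCODE 44 lifted to GRCh37, newer than the annotation of the authors, and 47098 of 54127 identifiers had a symbol. Named were the 10 members, SREBF1, SREBF2, MLXIPL, INSIG1 and PBK, up to 3 genes per list with the largest absolute log2 fold change (past the threshold, with a mean log2 CPM from 3 upwards), and 3 genes most like FASN, of which 1 is not reported here. The members and lists were chosen with earlier results of these data known. On simulated counts (14352 genes, PBKi against DMSO), 71% of changes of 0.5 and 89% of changes of 1 on the log2 scale were recovered, with 3.03% false calls. Only 100 genes were changed at each size, a far smaller share than the 41.7% called in the data, and no library deviated with GC content. These rates therefore need not hold for the data. Alternatives used DESeq2 1.42.0, limma-voom 3.58.1, other filters, factors, lanes and samples. Intervals cover the spread between libraries.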

Additional observations from a re-analysis of the deposited data

Results flagged for a closer look

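Of 60 groups of 6 values examined (30 named genes in each condition), 4 held a value far from the rest. The threshold flags 1 in 20 independent groups by chance, but these groups share the same 12 libraries, so that rate does not apply. All 4 were among the 30 DMSO groups, and in each the value was that of DMSO replicate 5, so they share 1 library. FASN was at 2235 CPM, against 1225 to 1534 CPM in the other DMSO libraries. SREBF1 was at 866 CPM, against 616 to 688 CPM, and SLC27A4 at 58.4 CPM, against 37.1 to 42.6 CPM. ME1 was at 178.5 CPM, below the 195.5 to 203 CPM of the others. The GC content of the canonical transcript was 65.3% for FASN, 63.2% for SREBF1, 62.1% for SLC27A4 and 39.3% for ME1.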

How the results depend on the processing

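Under each alternative run, 3 to 5 members were called lower and 0 higher, and ACSL3, ELOVL7 and ACLY kept their calls. FASN is the limit: its log2 fold change ran from -0.39 to -0.20 with 1 library left out, and in replicates 4 to 6 alone it was -0.40 with an adjusted p of 0.0649 from edgeR. In replicates 4 to 6 alone, 1303 genes were called higher in place of 2921 and 1216 lower in place of 3125. In the 6 lists of related genes 5 were then called higher in place of 15 and 7 lower in place of 26. Replicates 1 to 3 alone, with as many libraries, gave 3376 genes higher and 3184 lower, and in the lists 16 higher and 25 lower. FASN passed in replicates 1 to 3 (log2 fold change -0.24, edgeR adjusted p = 0.0155). Leaving out PBKi replicates 3 and 6, chosen after seeing the data, gave 2004 genes lower and 16 in the lists. The GC content offset was also chosen after seeing the data.

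The labels do not say that a replicate number marks a shared culture or day. Correlations of deviations were 0.0887 to 0.299 between same-numbered libraries (mean 0.198, over 0.1 in 5 of 6 pairs, best with the own number in 4 of 6) and -0.04 on average between others, a hint from the data that the numbers may carry shared structure. The second principal component (9.76% of the variance) also separated replicates 1 to 3 from 4 to 6 in both groups. A covariate for that split gave 3349 genes higher and 3696 lower, the 4 members lower, and SREBF2 passing (-0.14, adjusted p = 0.0144 from edgeR), while FADS2 had an adjusted p of 0.062. With the replicate number as a block, 3485 genes were called higher and 3803 lower, and 5 members lower, FADS2 being added (log2 fold change -0.14, adjusted p = 0.0405 from edgeR). SREBF2 also passed (-0.14, adjusted p = 0.0219), and FASN had an adjusted p of 0.000907. In the paired exact permutation test over sign changes, whose smallest p is 0.0312, FADS1 (-0.070) and FADS2 (-0.14) reached that p, and the ratios of ACLY to ACSS2 (-0.31) and ELOVL5 to ELOVL7 (0.39) had an adjusted p of 0.0625, the smallest these 4 ratios gave. Replicates 1 to 3 gave an ELOVL5 to ELOVL7 difference of 0.49 and replicates 4 to 6 one of 0.29. With 1 library left out, the difference ran from 0.105 to 0.22 for SCD to FADS2, passing without DMSO replicate 6 only (0.22, adjusted p = 0.00866, exact permutation test). The cause was not tested.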
